A study of Mus musculus with 6 samples.

Results

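The genes described here are the subunits of integrins and laminins, the receptors and the ligands by which cells hold on to the basement membrane. Members were taken by gene symbol from the count files: symbols beginning with Itga or Itgb, or with Lama, Lamb or Lamc, followed by a subunit number or letter. The integrin symbols Itgav, Itgb3, Itga4 and Itga9 were not analysed here. This rule found 34 of the 26264 gene symbols, 23 integrin subunits and 11 laminin chains. It used no measured value, but it was chosen with earlier results of these data known.

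The study asked what a transient exposure of preadipocytes to fibroblast growth factor 8 (FGF8) leaves behind after the cells have become adipocytes. Bulk RNA was sequenced from wild-type Bl6N mouse brown preadipocytes of the stromal vascular fraction, immortalized with SV40 large T antigen, so that every library comes from a cultured line and not from tissue. The cells were given 5.5 nM FGF8 for 48 h or nothing, and RNA was taken at once (day 0) or in the course of differentiation (day 3 and day 9), which gives 6 libraries, 1 for each of the 2 treatments on each of the 3 days. The last time point is named 7 days in the sample labels and is counted here as day 9, with 2 days of induction before it. The growth text of the labels describes white cells, whereas the titles, the source and the cell type name brown cells, and the latter were followed.

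The libraries held 16403254 to 38551551 counts, and no pair of them was identical. Counts were divided by size factors, and a normalized count is always meant below unless a level per kilobase is named. With 1 library per condition no p-value exists between 2 libraries, so each difference is a log2 fold change with a 95% interval for counting error only, which leaves out the spread between cultures. A gene passed the filter of a comparison when the 2 libraries averaged 20 normalized counts or more. The summed level of 8 brown adipocyte markers went from 731 at day 0 to 489493 at day 9 in untreated cells and from 1849 to 571776 after FGF8. The sum of 6 preadipocyte markers was 123650 and 29418 at day 0 in untreated and FGF8 cells and 30651 and 6969 at day 9. The part of these 2 lists in the differences below was not tested, and in bulk RNA fewer cells of a type and less RNA per cell cannot be told apart.

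Laminins are trimers of an alpha, a beta and a gamma chain that polymerize into the sheet on which adipocytes, muscle fibres and epithelia rest. Integrins are pairs of an alpha and a beta subunit that span the cell membrane: the alpha subunit largely sets whether the receptor binds laminin, collagen or proteins with the RGD tripeptide such as fibronectin, and the beta subunit connects to talin and the actin cytoskeleton. Preadipocytes attach mainly to a fibrillar, fibronectin-rich matrix, and maturing adipocytes surround themselves with a basement membrane.

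Of the 34 members, 28 averaged 20 or more normalized counts across the 6 libraries and 19 averaged 100 or more. The 6 members below 20 were all integrins: Itgb2l was at 0 in every library, which allows up to 3 counts each, Itgb6 and Itgam stayed at or below 3 counts, and Itgal, Itgax and Itgb7 were low in most libraries.

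The members lay on both sides at day 0 and mostly on the lower side after FGF8 later on. At day 0, Itga6, Itga2, Itgb2, Itgb7 and Itga10 were at least 2-fold higher in FGF8 cells, and Itga11, Itgb8, Itga8, Lama4, Itga2b, Itga1, Lamb2, Lama2 and Lama3 at least 2-fold lower. At day 3, 2 members were higher and 11 lower. At day 9, none was higher by 2-fold, and Itga8, Lama2, Lamc3, Itga2b and Itgad were lower. For Itga2b, Itga8 and Lama2 the FGF8 library was below its untreated pair by 2-fold or more on every day.

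**Figure D1:**
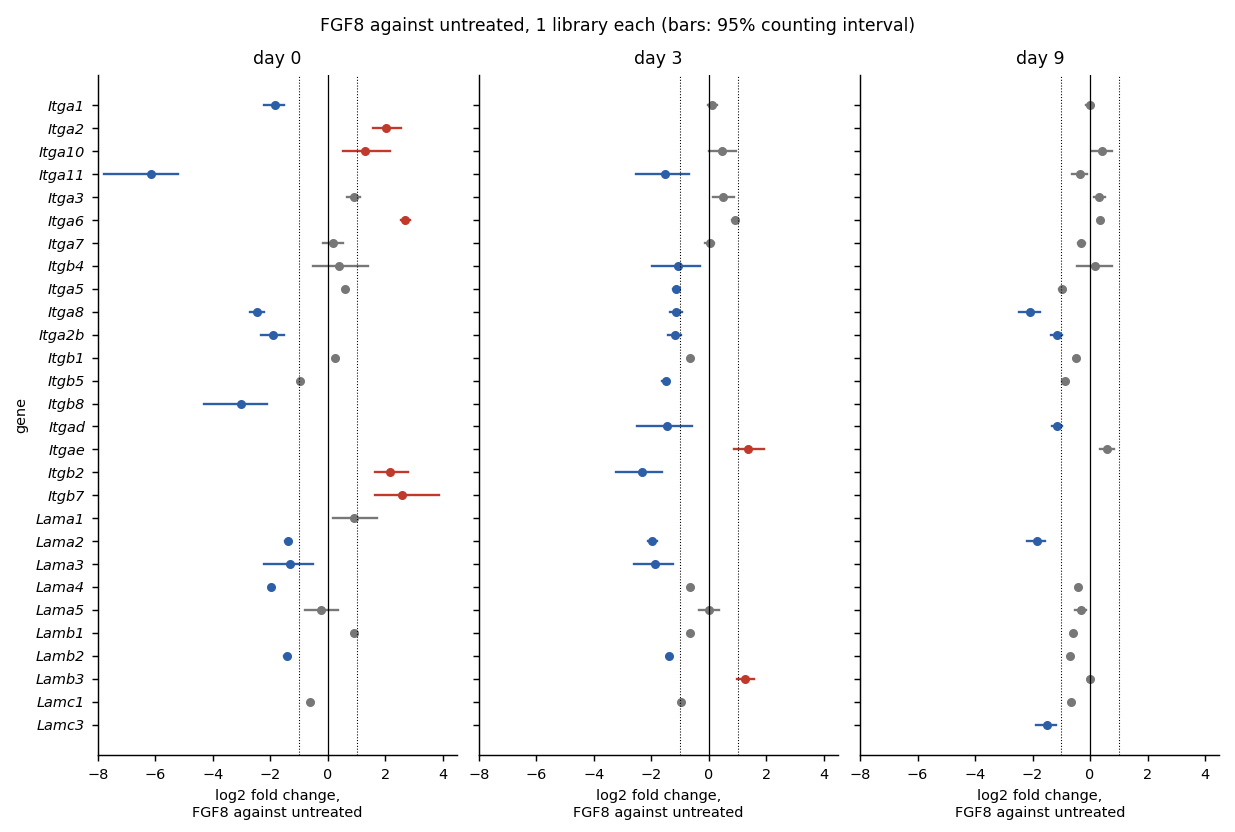
Log2 fold change of FGF8 against untreated cells (x axis) for the members named in the text (y axis) at day 0, 3 and 9, with 1 library per condition and bars for the 95% counting interval. Red marks at least 2-fold higher, blue at least 2-fold lower, and a listed gene without a point had a mean under 20 normalized counts in that pair. At day 0 the values run from -6.16 (Itga11) to 2.70 (Itga6), and at day 9 no member reaches 2-fold higher.

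Set against all genes, the members' counts were as follows. At day 0, 5 of 25 members that passed the filter (20.0%) were at least 2-fold higher and 9 (36.0%) at least 2-fold lower, where 7.27% and 10.8% of all 12657 genes were. At day 3, 2 of 24 were higher and 11 lower, against 3.80% and 12.1% of all genes. At day 9, 0 of 23 were higher and 5 lower, against 1.12% and 8.74%. A member low in both libraries could not enter these counts, and a member that passed only through the library where it is high had to differ, so the counts describe the members measured and are no test.

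The median log2 fold change of the members was -0.20, -0.81 and -0.48 at day 0, 3 and 9, where the median over all genes was 0.05, 0.08 and 0.08. At day 0 the integrins lay on both sides, with 5 higher and 5 lower of 16 and a median of 0.32, and the laminins lay below, with 0 higher and 4 lower of 9 and a median of -0.61. On all 3 days 19 members passed the filter. Of these, 3 were at least 2-fold lower on each day (3.49% of all genes were) and 0 at least 2-fold higher on each day (0.0931% were). Counted at any size, 10 of the 19 were lower on each day, among them Lama5 with -0.00 at day 3, and Itga3, Itga6 and Itga10 were higher on each day. The share of all genes on the same side on each day is not given here, so these counts at any size are no result about the members.

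**Figure D2:**
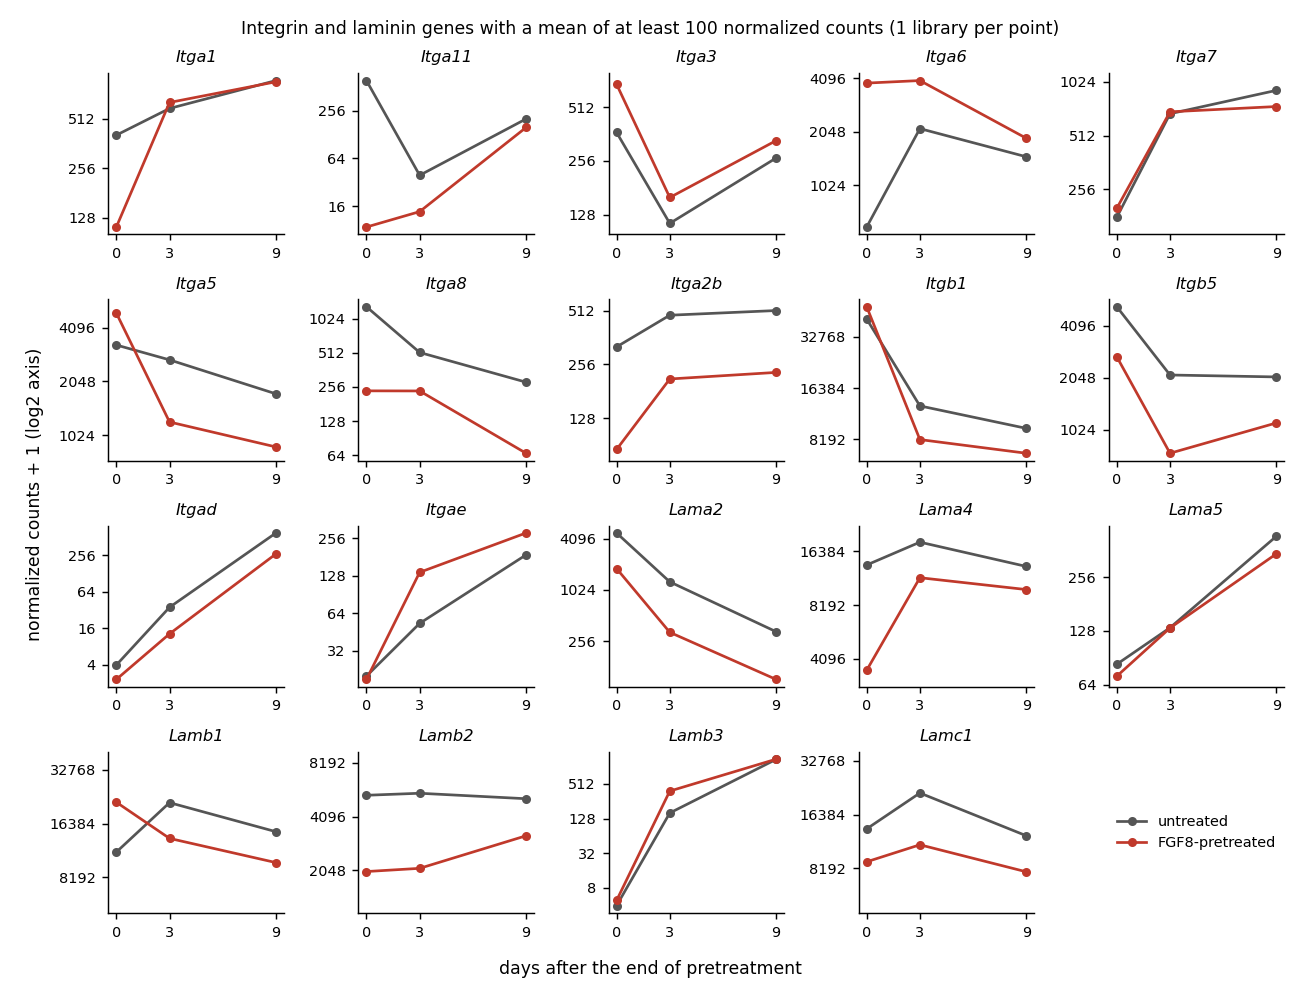
Normalized counts plus 1 on a log2 axis (y) against days after the end of pretreatment (x) for the 19 members that averaged 100 or more, each point 1 library, untreated in grey and FGF8-pretreated in red. The lines join days and are no fit. Lama2, Itga8 and Itga2b keep the red line below the grey one throughout, and Itga5, Itgb1 and Lamb1 cross between day 0 and day 3.

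The laminin alpha chains carry the globular domains that integrins and dystroglycan bind. Lama4, the alpha chain of endothelial and adipocyte basement membranes, counted 13734, 18444 and 13481 normalized counts at day 0, 3 and 9 in untreated cells and 3530, 11655 and 10002 after FGF8. The FGF8 libraries were the lower of each pair, and the gap narrowed from a log2 fold change of -1.96 (interval -2.02 to -1.90) at day 0 to -0.66 at day 3 and -0.43 at day 9. Lama2, the alpha chain of muscle and nerve basement membranes, counted 4778, 1274 and 330.1 in untreated cells and 1826, 325 and 90.2 after FGF8. It declined with differentiation in both treatments. The FGF8 library was lower on each day, by -1.39 (-1.48 to -1.30), -1.97 (-2.13 to -1.81) and -1.86 (-2.18 to -1.57), a wider gap at day 3 than at day 0.

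Lama5, the broadly expressed epithelial and vascular alpha chain, counted 82.3, 132 and 434 in untreated cells and 70.4, 132 and 346 after FGF8. Its level was close between the treatments at day 0 and day 3, with intervals that include 0, and -0.33 (-0.51 to -0.15) at day 9. Lama3, an alpha chain of epithelial anchoring filaments, stayed between 1.63 and 76.4 normalized counts and was lower after FGF8 at day 0 (-1.31) and day 3 (-1.86). Lama1, the main alpha chain of the embryo, ranged from 1.27 to 61.5 and was 1.87-fold higher after FGF8 at day 0 (interval 0.17 to 1.73 on the log2 scale).

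Beta and gamma chains join an alpha chain into the secreted trimer. Lamb1, the most widespread beta chain, counted 11347, 21482 and 14767 in untreated cells and 21605, 13542 and 9910 after FGF8. The FGF8 library was the higher one at day 0 (log2 0.93, 0.89 to 0.97) and the lower one at day 3 (-0.67, -0.70 to -0.64) and day 9 (-0.58). Lamb2, the beta chain of the neuromuscular junction and the kidney filter, counted 5391, 5533 and 5156 in untreated cells and 2014, 2099 and 3196 after FGF8. Here the untreated level hardly moved over the course, and the FGF8 level was below it on each day, by -1.42, -1.40 and -0.69. Thus at day 0 the 2 main beta chains stood on opposite sides, Lamb1 higher and Lamb2 lower after FGF8.

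Lamc1, the gamma chain found in most laminins, counted 13634, 21663 and 12477 in untreated cells and 8915, 11104 and 7834 after FGF8, lower by -0.61, -0.96 and -0.67. Lamc3, a minor gamma chain, was at 2.94, 25.5 and 218 in untreated cells and 0, 9.13 and 75.6 after FGF8. It rose with differentiation under both treatments and was lower after FGF8 at day 9 (-1.51, -1.88 to -1.19).

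Compared per kilobase of merged exons, so that long and short genes can be set side by side, 1 chain of each kind led in all 6 libraries. Lama4 made up 75.5%, 92.9% and 93.6% of the summed alpha chain level at day 0, 3 and 9 in untreated cells and 65.8%, 95.9% and 94.5% after FGF8. The remainder at day 0 was mainly Lama2, with 23.2% and 30.0%. Lamb1 made up 54.4% of the beta chain level at day 0 in untreated cells and 85.9% after FGF8, and at day 9 the shares were 57.6% and 57.2%. Lamc1 was never below 95.8% of the gamma chain level. The summed alpha chain level at day 0 was 1157 per kilobase in untreated cells and 341 after FGF8, whereas the beta chain level was 1944 and 2345. Divided by the longest transcript instead, Lama4, Lamb1 and Lamc1 led in all 6 libraries too, and the share of Lamb1 at day 0 was 66.7% and 91.1%.

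**Figure D3:**
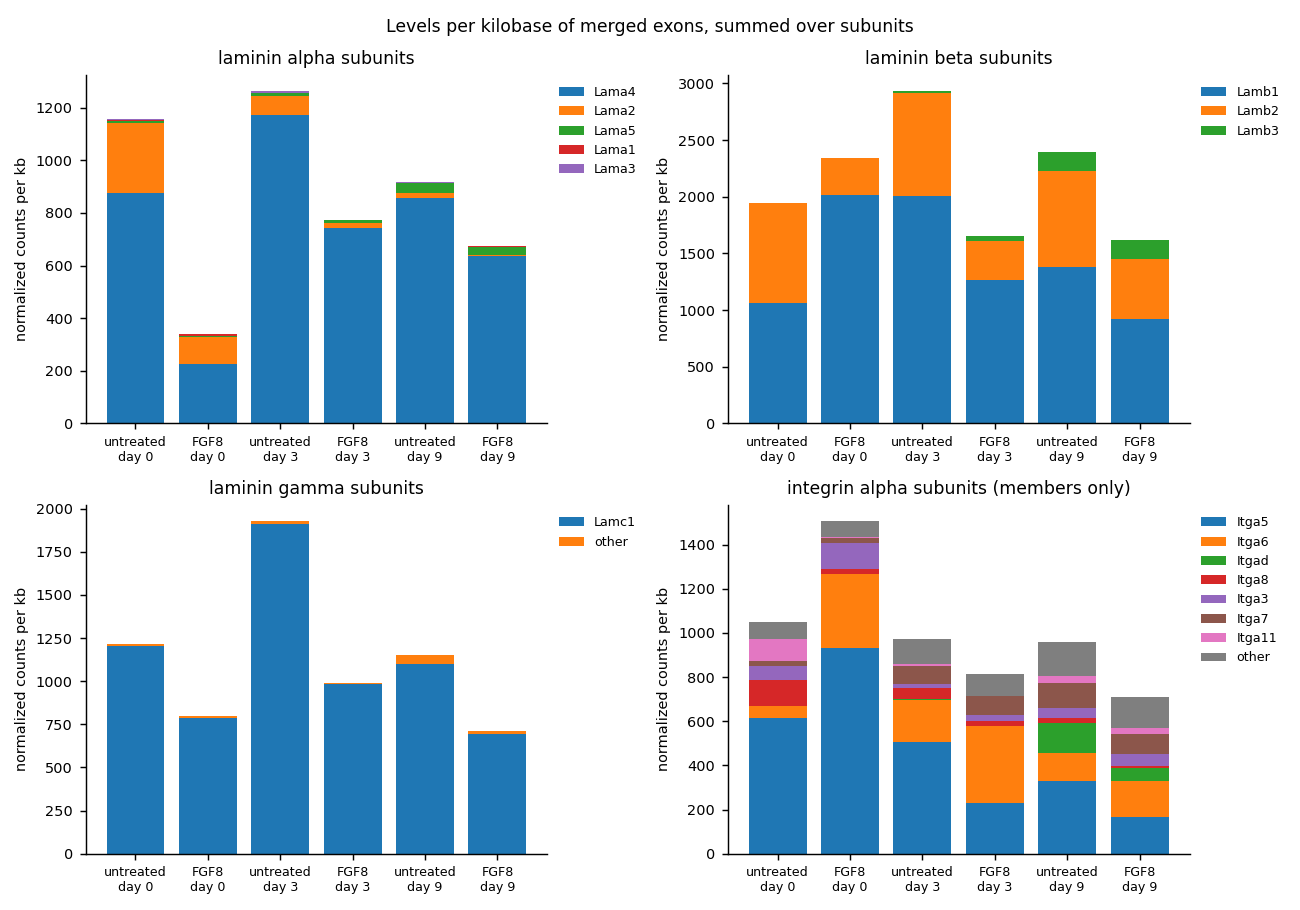
Normalized counts per kilobase of merged exons (y) in each of the 6 libraries (x), stacked over the subunits of a kind, with the lesser gamma chains and the lower integrins summed as other. Untreated and FGF8 libraries of a day stand side by side, and the integrin panel holds the members only. The laminin alpha column at day 0 is 1157 high in untreated and 341 in FGF8 cells, and within the integrin alpha columns the Itga6 segment grows from 52.1 to 338 with FGF8 at day 0.

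Lamb3, the beta chain of epithelial laminin, needs a caution about position. It counted 2.94, 159 and 1366 in untreated cells and 3.84, 383 and 1376 after FGF8, a rise with differentiation under both treatments, and was higher after FGF8 at day 3 (log2 1.26, 0.99 to 1.56). In GRCm39 the gene lies on chromosome 1 from 192890007 to 193027705 on the plus strand and shares 119 exon bases with G0s2, a lipolysis inhibitor of adipocytes, on the other strand. G0s2 counted 72.0, 10709 and 16142 in untreated cells and 120, 22550 and 19163 after FGF8. Both genes were higher at day 3 than at day 0, and both were higher after FGF8 at day 3. From day 3 to day 9 both were higher in untreated cells (log2 0.59 for G0s2 and 3.09 for Lamb3). Over the same step in FGF8 cells G0s2 was lower (log2 -0.23, -0.26 to -0.21) and Lamb3 higher (1.84). The kit kept strand, but the strand setting of the counting is not given in the sources used here, so that reads of the 2 genes over the shared bases cannot be told apart.

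The same holds for Itgad, an alpha subunit of leukocyte integrins, on chromosome 7 from 127753548 to 127822988 on the plus strand. It counted 2.94, 34.4 and 596 in untreated cells and 1.28, 11.9 and 268 after FGF8, lower after FGF8 at day 3 (-1.45) and day 9 (-1.15, -1.34 to -0.97). Its exons share bases with Cox6a2, a subunit of cytochrome c oxidase found in muscle and brown fat, on the other strand. Cox6a2 counted 8.81, 52.2 and 344 in untreated cells and 101, 72.3 and 832 after FGF8, which is higher after FGF8 at day 9 (log2 1.27), where Itgad was lower. From day 0 to day 9 in untreated cells both rose, Cox6a2 by 5.14 and Itgad by 7.24. A further counted gene, 4931431B13Rik, also shares exon bases with Itgad on the other strand. In all, 10 members share exon bases with a counted gene on the other strand, among them Itga1 and Itga2 with Mocs2, Lamb1 with Dld, Lama5 with Adrm1, Lama4 with Fam229b and Itgb4 with Galk1.

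**Figure D4:**
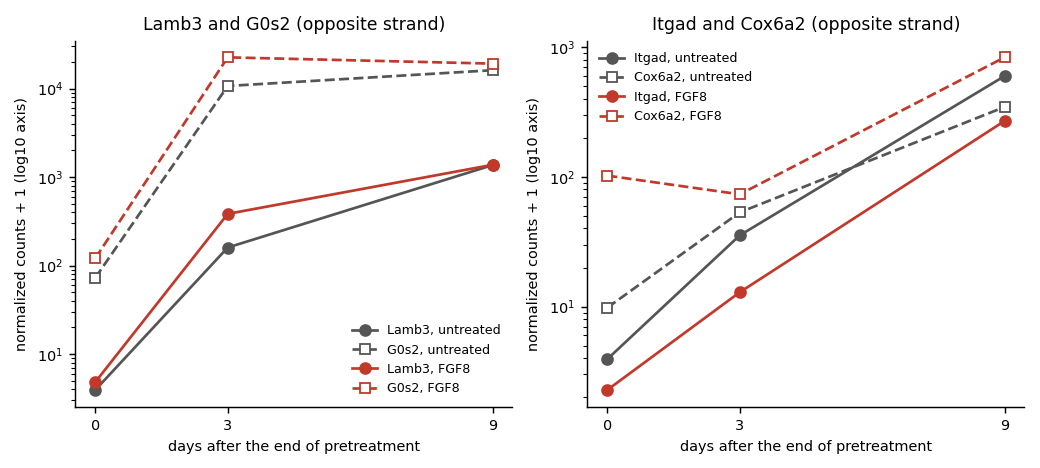
Normalized counts plus 1 on a log10 axis (y) by days after the end of pretreatment (x) for Lamb3 with G0s2 (left) and Itgad with Cox6a2 (right), 1 library per point, members as filled circles and the overlapping genes as open squares. Lamb3 and G0s2 are both higher at day 3 than at day 0. From day 3 to day 9 in FGF8 cells G0s2 goes from 22550 to 19163 and Lamb3 from 383 to 1376, while both go up in untreated cells. At day 9 FGF8 cells show more Cox6a2 (832 against 344) and less Itgad (268 against 596) than untreated cells. Itgad and Cox6a2 both go up from day 0 to day 9 in each treatment.

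Among the receptors for laminin, Itga6 differed most at day 0. This alpha subunit, which pairs with Itgb1 or Itgb4, counted 593, 2132 and 1479 in untreated cells and 3850, 3979 and 1881 after FGF8. The FGF8 libraries were the higher of each pair, by 2.70 (2.55 to 2.85), 0.90 (0.82 to 0.98) and 0.35 (0.26 to 0.43). Untreated cells reached at day 3 a level that was still below that of FGF8 cells before differentiation. Itga3, the alpha subunit that anchors epithelia and podocytes, counted 369, 113 and 265 in untreated cells and 688, 159 and 332 after FGF8. It was higher after FGF8 on each day, with log2 fold changes of 0.90, 0.48 and 0.32. Itga7, the laminin receptor of muscle, counted 178, 678 and 918 in untreated cells and 199.7, 696 and 745 after FGF8. It rose with differentiation, and the treatments lay within 0.30 of each other on the log2 scale on each day. Itgb4, the beta subunit of hemidesmosomes, ranged from 16.8 to 38.2 normalized counts and was lower after FGF8 at day 3 only (-1.09, -1.98 to -0.30).

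The collagen receptors showed the widest spread at day 0. Itga11, the alpha subunit for fibrillar collagen of fibroblasts, counted 618, 38.2 and 202 in untreated cells and 7.68, 12.6 and 157 after FGF8. At day 0 it was 71.3-fold lower after FGF8, a log2 fold change of -6.16 (-7.79 to -5.20) that rests on few counts in the FGF8 library, and at day 9 the difference was -0.36 (-0.63 to -0.09). Itga1, a receptor for basement membrane collagen, counted 405, 589 and 871 in untreated cells and 111, 641 and 856 after FGF8. It was lower after FGF8 at day 0 (-1.85, -2.23 to -1.51), and the intervals at day 3 and day 9 include 0.

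Itga2, the other classical collagen receptor subunit, counted 66.1, 22.9 and 7.81 in untreated cells and 273, 4.91 and 17.9 after FGF8. At day 0 it was thus 4.08-fold higher after FGF8 (2.03, 1.57 to 2.54), opposite to Itga1 and Itga11, and in the later pairs its mean was under 20. Itga10, the collagen receptor of cartilage, counted 27.9, 75.1 and 92.3 in untreated cells and 69.1, 104 and 124 after FGF8. Its FGF8 libraries were the higher ones, by 1.28 (0.53 to 2.15), 0.46 and 0.43.

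The promoters of the collagen receptor genes with the largest decrease and the largest increase at day 0 among the members in the promoter table are shown because they differed in opposite directions. They are RefSeq promoters on the GRCm38.p6 build, 250 bases before to 50 after the transcription start, in the direction of the gene: Itga11 on the plus strand at chr9:62677605-62677904 and Itga2 on the minus strand at chr13:114932051-114932350. The table held 24 promoters of 21 members, and Itga6 was not among them. Capitals mark the motif letters searched for on both strands.
Itga11: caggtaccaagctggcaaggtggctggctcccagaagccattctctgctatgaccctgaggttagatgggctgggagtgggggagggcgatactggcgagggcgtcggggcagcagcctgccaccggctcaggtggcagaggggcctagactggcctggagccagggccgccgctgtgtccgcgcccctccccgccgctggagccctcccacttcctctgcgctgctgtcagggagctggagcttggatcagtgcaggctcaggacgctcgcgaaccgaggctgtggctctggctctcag
Itga2: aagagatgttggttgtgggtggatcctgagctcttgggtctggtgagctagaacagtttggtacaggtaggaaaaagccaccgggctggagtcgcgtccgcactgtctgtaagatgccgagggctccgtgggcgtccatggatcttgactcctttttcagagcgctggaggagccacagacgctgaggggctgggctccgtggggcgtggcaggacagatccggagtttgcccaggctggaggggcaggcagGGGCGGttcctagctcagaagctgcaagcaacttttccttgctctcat
The Itga2 promoter holds 1 GC box (GGGCGG), a match that 35.7% of all 32851 promoters and 10 of the 24 member promoters have. Neither promoter holds an AP-1 element (TGACTCA, 5.20% of all promoters), a cyclic AMP response element (TGACGTCA, 1.79%), an ETS element (CCGGAAGT, 3.89%), a TEAD element (GGAATG, 14.7%) or a TATA box (TATAAA, 13.6%). Their GC contents were 68.0% for Itga11 and 59.3% for Itga2, where the median of all promoters was 52.7%. These matches describe the letters of the window and are no evidence of binding.

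The receptors for fibronectin and other RGD proteins were mostly lower after FGF8. Itga5, the fibronectin receptor subunit, counted 3278, 2706 and 1745 in untreated cells and 4952, 1213 and 879 after FGF8. It was higher after FGF8 at day 0 (log2 0.59, 0.52 to 0.67) and lower at day 3 (-1.16, -1.25 to -1.07) and day 9 (-0.99, -1.09 to -0.89). Itga8, the nephronectin receptor subunit of mesenchyme, counted 1300, 514 and 281 in untreated cells and 236, 235 and 65.8 after FGF8. Every FGF8 library was below its untreated pair, by -2.46 (-2.70 to -2.23), -1.13 (-1.34 to -0.92) and -2.08 (-2.46 to -1.75). Itga2b, the fibrinogen receptor subunit of platelets, counted 320.2, 482 and 512 in untreated cells and 84.5, 211 and 230.1 after FGF8. It was lower after FGF8 by -1.91, -1.19 and -1.15. Of 4 platelet markers, Ppbp and Gp9 had at most 3 counts in every library, and the sum of the list ranged from 45.5 to 144, nearly all of it Gp1ba with 44.1 to 143.

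Itgb5, a beta subunit of vitronectin receptors, counted 5259, 2119 and 2065 in untreated cells and 2700, 747 and 1119 after FGF8. It was lower after FGF8 by -0.96, -1.50 and -0.88, with the largest gap at day 3 (-1.62 to -1.39). Itgb8, a beta subunit that takes part in the activation of latent TGF-beta, was at 99.9 in untreated and 11.5 in FGF8 cells at day 0 (-3.01, -4.30 to -2.11) and at or below 5.09 on the later days. Itgb6, which acts on the same latent complex in epithelia, was at 0 in 5 libraries and at 1 count in the other.

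Itgb1, the beta subunit shared by the laminin, collagen and several RGD receptors, counted 41644, 12875 and 9505 in untreated cells and 49144, 8168 and 6791 after FGF8. It fell with differentiation in both treatments, and FGF8 cells were higher at day 0 (0.24, 0.22 to 0.26) and lower at day 3 (-0.66) and day 9 (-0.48). Per kilobase it made up 84.0% to 94.4% of the summed beta subunits among the members in every library, and Itgb5 came second with 4.39% to 15.4%. Among the alpha subunits that are members, Itga5 ranked first per kilobase in untreated cells, with 616, 508 and 328 at day 0, 3 and 9. After FGF8 it was 930, 228 and 165, and Itga6 was 338, 350 and 165, so that Itga6 ranked first at day 3 and stood level with Itga5 at day 9. By the longest transcript Itga6 also led at day 9 (271 against 199).

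Of the integrins named for leukocytes, Itgad, Itgae, Itgb2 and Itgb7 were clearly detected in some libraries, and the others stayed at or below 10.2 normalized counts. Itgal ranged from 1.28 to 10.2 normalized counts, Itgax from 0 to 7.68 and Itgam from 0 to 3.82, too few to compare. Itgb2, the beta subunit of leukocyte integrins, counted 48.5, 71.3 and 17.0 in untreated cells and 222, 13.3 and 9.76 after FGF8. It was higher after FGF8 at day 0 (2.17, 1.65 to 2.78) and lower at day 3 (-2.33, -3.25 to -1.64). Itgb7, a homing receptor subunit of lymphocytes, was at 13.2 in untreated and 84.5 in FGF8 cells at day 0 (2.59, 1.66 to 3.87) and at or below 5.62 later. Itgae, which pairs with Itgb7 and binds E-cadherin, counted 19.1, 52.2 and 187 in untreated cells and 17.9, 136 and 281 after FGF8. It rose with differentiation and was higher after FGF8 at day 3 (1.36, 0.88 to 1.90) and day 9 (0.58).

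Of the 12 leukocyte markers, 6 had at most 3 counts in every library, Ptprc, Adgre1, Cd3e, Tyrobp and Laptm5 among them. Those that carried most of the sum were Cd14 with 26.0 to 188, Cd68 with 35.8 to 101 and Csf1r with 5.12 to 45.5. The sum of the list lay between 236 and 308 in untreated cells and between 144 and 177 in FGF8 cells. The epithelial list summed to 120 in FGF8 cells at day 0, mostly Epcam with 110, and to 6.50 to 24.2 in the other libraries. Of its 7 markers 4, Cdh1 among them, had at most 3 counts everywhere. The endothelial list summed to 1635 in untreated cells at day 0, mostly Kdr with 1288, and to 36.6 to 214 elsewhere. The skeletal muscle list summed to 20.6 to 665 in untreated and 30.7 to 1196 in FGF8 cells. Nearly all of it at day 9 was Des, with 649.5 and 1178, whereas Ttn stayed at 9.83 to 22.9. The regulators in this list, Myod1, Myog, Myf5 and Pax7, were at or below 3 counts. The Schwann list summed to 717 to 2224, and Ncam1 with 314 to 2074 was its largest marker in each library. The part of these lists in the members' differences was not tested.

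The only test of FGF8 that the design allows treats the 3 days as replicates of the treatment, and it measures the spread between these samples, which differ in day as well as in culture. By the quasi-likelihood test of edgeR, adjusted over 14569 genes after Benjamini-Hochberg, 1 of the 29 members tested passed an adjusted p of 0.05, where 1.27% of all genes did. This was Lama2, on chromosome 10 from 26856032 to 27495754 on the minus strand, with a shared log2 fold change of -1.76 (SE 0.172, adjusted p = 0.0429, lower in 3 of 3 pairs). The call did not hold without any 1 of the 4 libraries of day 3 and day 9, nor without the day block, and the adjusted p ranged from 9.31e-12 to 1.00 over the alternatives. At an unadjusted p under 0.05, 13 of the 29 passed, 2 higher and 11 lower, where 23.3% of all genes did. Without the untreated or the FGF8 library of day 0, 12 and 11 of 30 members passed the adjusted threshold, and 16.4% and 15.6% of all genes did. The Wald test of DESeq2 called 10 members and 12.3% of all genes. The next members by the same edgeR test were Itga8 (-1.91, SE 0.301, adjusted p = 0.0657 and 2.93e-06 to 1.00 over the alternatives) and Itgb5 (-1.14, SE 0.179, adjusted p = 0.0657 and 2.66e-05 to 1.00), each lower in 3 of 3 pairs.

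The second question is how the subunits moved while preadipocytes became adipocytes. Lamb3, Lamc3, Lama5, Itgad, Itgae and Itga7 rose, and Lama2, Itgb1, Itgb5 and Itga8 fell, in untreated and FGF8 cells alike. In untreated cells, 5 of 25 members were at least 2-fold higher at day 3 than at day 0 and 8 lower, against 19.5% and 15.5% of all genes. From day 3 to day 9, 8 of 25 were higher and 3 lower (8.77% and 4.42% of all genes), and from day 0 to day 9, 10 of 28 were higher and 10 lower (23.7% and 19.5%). In FGF8 cells the counts were 6 higher and 9 lower of 25 from day 0 to day 3 (24.1% and 22.0% of all genes), 8 and 3 of 23 from day 3 to day 9 (8.16% and 5.40%), and 10 and 12 of 27 from day 0 to day 9 (26.1% and 22.6%).

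With the 2 treatments as replicates of a day, edgeR called a day effect for 15 of the 29 members tested, where 52.0% of all genes were called. Leaving out the untreated library of day 0 raised this to 25 of 30 members, and to 63.9% of all genes. From day 0 to day 3, 7 members rose and 7 fell (26.2% and 19.8% of all genes), and from day 0 to day 9, 10 rose and 10 fell (29.2% and 24.8%). Between day 3 and day 9 edgeR called 0 members (0.0686% of all genes), with 12 at an unadjusted p under 0.05 (21.3% of all genes). The members' share of day calls was thus near that of all genes.

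The members that rose from day 0 to day 9 included Lamb3 (log2 8.71, SE 0.514, edgeR adjusted p = 0.00164), Itgad (7.66, SE 0.449), Lamc3 (6.67, SE 0.687), Itgae (3.66, SE 0.475), Lama5 (2.39, SE 0.271), Itga7 (2.17, SE 0.205), Itga1 (1.93, SE 0.537), Itga10 (1.28, SE 0.394) and Itga2b (1.07, SE 0.294). Those that fell were Itgb8 (-4.23, SE 0.599), Lama2 (-4.06, SE 0.230, edgeR adjusted p = 0.00164), Itga2 (-3.59, SE 1.05), Itgb7 (-3.19, SE 0.846), Lama3 (-2.87, SE 0.531), Itgb1 (-2.48, SE 0.314), Itga8 (-2.01, SE 0.366), Itga5 (-1.75, SE 0.475), Lama1 (-1.74, SE 0.448) and Itgb5 (-1.26, SE 0.219). The laminin chains that lead per kilobase, Lama4, Lamb1 and Lamc1, were not among them. The adjusted p of the day effect ranged from 2.88e-37 to 0.0113 over the alternatives for Lamb3 and from 2.23e-40 to 0.0563 for Lama2. Among the members that rose, Lamb3, Itgad, Lama5 and Itga1 share exon bases with a counted gene on the other strand, as described above.

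Some members took a different course in the 2 treatments. From day 0 to day 9 Itga11 was lower by -1.61 in untreated cells and higher by 4.18 in FGF8 cells, which ended at 202 and 157. Itga6 was higher by 1.32 in untreated cells and lower by -1.03 in FGF8 cells. Itga1 was higher by 1.10 in untreated and by 2.93 in FGF8 cells. In each of these the treatments were nearer to each other at day 9 than at day 0, whereas for Itga8 the log2 fold change of FGF8 against untreated was -2.46 at day 0 and -2.08 at day 9. These differences between courses were not tested, since each rests on 1 library per point.

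The genes around the receptors and ligands were followed in 3 lists of textbook partners, chosen with earlier results of these data known. Of the basement membrane partners of laminin, 1 was at least 2-fold higher and 7 lower of 19 at day 0, 1 and 7 of 19 at day 3, and 0 and 6 of 19 at day 9, with medians of -0.75, -0.72 and -0.67. On these days 7.27%, 3.80% and 1.12% of all genes were at least 2-fold higher and 10.8%, 12.1% and 8.74% lower. Smoc2, a calcium-binding matrix protein, counted 516 in untreated and 7.68 in FGF8 cells at day 0 (-5.89), and Nid2, which links laminin to collagen IV, 7863 and 646 (-3.60). In the other direction stood the collagen IV chains Col4a2 (2957 and 6478, log2 1.13) and Col4a1 (5780 and 10334, 0.84), which at day 3 were at -0.86 and -0.67. Nid2 was also lower at day 3 (-1.57) and day 9 (-2.51). In the edgeR test of the shared FGF8 effect, 0 of the 22 tested passed, with 11 at an unadjusted p under 0.05, all lower. By the same test 1.27% of all genes passed, and 23.3% had an unadjusted p under 0.05.

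Of the other integrin ligands, 2 were at least 2-fold higher and 8 lower of 16 at day 0. The counts were 1 and 13 of 15 at day 3 and 0 and 12 of 16 at day 9. On these days 7.27%, 3.80% and 1.12% of all genes were higher and 10.8%, 12.1% and 8.74% lower. The medians of the ligands were -0.98, -1.53 and -1.49. Tnxb, a tenascin of loose connective tissue, counted 624 in untreated and 21.8 in FGF8 cells at day 0 (-4.78), and Ccn1, a matricellular target of growth signals, 1918 and 357 (-2.42). Tnc, the tenascin of wounds and embryos, was higher after FGF8 at day 0 (6329 and 27735, 2.13) and lower at day 3 (-2.33) and day 9 (-1.58). Edil3, an RGD protein of the endothelial matrix, was higher at day 0 (739 and 1714, 1.21) and had a mean under 20 later.

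By the same test 185 of all 14569 genes were called (1.27%), 182 of them lower and 3 higher. Of the 17 ligands tested, 4 fell by the edgeR quasi-likelihood test of the shared FGF8 effect (Benjamini-Hochberg), each lower in 3 of 3 pairs. These were Thbs1, a thrombospondin that activates latent TGF-beta (-1.95, SE 0.164, adjusted p = 0.0429), Vcam1, the counter-receptor of leukocyte integrins (-1.54, SE 0.151, adjusted p = 0.0429), the elastic fibre protein Emilin1 (-1.73, SE 0.179, adjusted p = 0.0441) and the elastic fibre assembly protein Fbln5 (-1.32, SE 0.144, adjusted p = 0.0451). All 4 calls were lost without any 1 of the 4 libraries of day 3 and day 9 and without the day block, where the adjusted p reached 1.00.

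Inside the cell, of the focal adhesion adaptors 1 was at least 2-fold higher and 4 lower of 25 at day 0, 0 and 6 of 27 at day 3, and 1 and 1 of 27 at day 9, with medians of -0.28, -0.44 and -0.21. The share at least 2-fold lower was 16.0%, 22.2% and 3.70%, where that of all genes was 10.8%, 12.1% and 8.74%. The share at least 2-fold higher was 4.00%, 0% and 3.70%, where that of all genes was 7.27%, 3.80% and 1.12%. Tns1 and Tns3, tensins that couple Itgb1 to actin, were lower after FGF8 at day 0 (2797 and 1115, -1.33, and 5198 and 2324, -1.16). Tns3 was lower at day 3 too (-1.48), whereas Tns1 was at 0.45 at day 3 and 0.05 at day 9. Parvb, a partner of integrin-linked kinase, was higher on each day (251 and 1257 at day 0, log2 2.32, then 0.67 and 1.61). Actn1, the actin cross-linker alpha-actinin, was at 4458 and 6715 at day 0 (0.59) and at -1.14 at day 3. In the edgeR test 0 of the 29 adaptors tested passed, where 1.27% of all genes did. At an unadjusted p under 0.05 there were 10, 1 higher and 9 lower, against 23.3% of all genes.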

How the data were processed

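The authors trimmed the reads with Trim Galore, aligned them to the mouse genome (mm39) with HISAT2 and summarized them per gene with featureCounts, and the deposited values are raw counts for each of the 6 libraries. Versions, the gene annotation, the strand setting and the treatment of reads with several matches are not given in the sources used here. Conditions came from the sample titles. The members and the gene lists were chosen with earlier results of these data known, and the grouping of members by role follows textbook roles.

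Counts were divided by DESeq2 (1.42.0) median-of-ratios size factors over the 6 libraries. Fold changes are differences of log2(normalized count + 1). Their 95% intervals (Clopper-Pearson, from the raw counts of both libraries) and the floor of 3 counts cover counting error alone. Members were called at 2-fold where the pair averaged 20 normalized counts or more. edgeR (4.0.16) was fitted to the raw counts of all 6 libraries with TMM, filterByExpr and day plus treatment (quasi-likelihood test, Benjamini-Hochberg over all genes, adjusted p under 0.05), which leaves 2 residual degrees of freedom. The SE was taken from the F statistic and the fold change. Tested on simulated counts for the shared FGF8 effect, with 200 of 14439 genes changed, it called 200 of them and 7 unchanged genes. In the 6 real libraries it called 185 of 14569 genes, and 412 of 11813 genes were at least 2-fold lower on each day. The share of real effects that it finds in these libraries was not tested, so a member without a call is not shown to be unaffected. Lengths and positions came from GENCODE M39 (GRCm39), in which 23698 symbols had 1 gene of that name, and promoters from RefSeq on GRCm38.p6. Members with a mean of at least 100 over the 6 libraries are given in every library, the others where they differed 2-fold, and 1 member and 1 marker are counted but not reported by name. From each list of partners, the 2 genes with the largest change per direction at day 0 at a mean of at least 100 are named. The alternatives were other size factors (TMM, total counts, the 2 libraries alone), pseudocounts of 0.5 and 5, filters, folds of 1.5 and 4, DESeq2, fits without day or treatment, each library left out and the longest transcript as length. Scripts ran under Python 3.11.15 (pandas 2.3.3, scipy 1.17.1) and R 4.3.3.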

Additional observations from a re-analysis of the deposited data

Results flagged for a closer look

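Itga11 took opposite courses from day 0 to day 9, with log2 fold changes of -1.61 in untreated and 4.18 in FGF8 cells, and so did Itga6 (1.32 and -1.03). Lamb1 was opposite from day 0 to day 3, at 0.92 in untreated and -0.67 in FGF8 cells. Itga5 stood out because FGF8 cells were above untreated cells at day 0 (0.59) and below them at day 3 (-1.16) and day 9 (-0.99). Itgb2 turned in the same way, from 2.17 at day 0 to -2.33 at day 3, and Lamb1 from 0.93 to -0.67. In each case both differences are at least 1.5-fold, and their counting intervals exclude 0 on opposite sides. The differences between days and between courses were not tested, because each value compares 1 library with 1 other. Itga5, Itgb2 and Lamb1 are 3 of the 28 members averaging 20 or more counts, and among all 13256 such genes, 483 showed such a turn between days.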

How the results depend on the processing

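No member called at 2-fold turned its direction under another scaling, pseudocount or filter. With a 4-fold rule the members differing between treatments numbered 7 (day 0), 1 (day 3) and 1 (day 9), and along the course 3, 6 and 12 in untreated cells (day 0 to 3, 3 to 9, 0 to 9) and 3 (day 3 to 9) and 13 (day 0 to 9) in FGF8 cells. With a 1.5-fold rule 10 differed at day 9. Without a filter 20 differed at day 3 and 10 at day 9, the added members being those with few counts, and at a mean of at least 100 there were 7 at day 3 and, for untreated cells from day 0 to 3, 8. These shifts follow from the rules' own construction. The shares of all genes under these other rules are not given here, so the counts are no result about the members. Members called for the shared FGF8 effect numbered 5 without a filter on low counts (2.11% of all genes), 0 without the day block (0%) and 10 with the DESeq2 Wald test (12.3%). They numbered 0 to 12 when 1 library was left out, where 0% to 16.4% of all genes were called. For the day effect they numbered 23 with the DESeq2 likelihood ratio test (56.7% of all genes) and 11 to 25 when 1 library was left out. The cause of these differences between tests was not tested. Scaling by total counts moved the median of all genes by -0.277 for FGF8 cells from day 0 to day 9 and by -0.108 for FGF8 against untreated cells at day 3. The day block pairs the treatments within each day, and no paired analysis by replicate number was possible because the labels give none and each condition has 1 library. Depth limits the members under 20 normalized counts, whose intervals mostly include 0.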

Other observations

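Fn1, which encodes fibronectin, the ligand of the receptor formed by Itga5 and Itgb1, was looked up after its values had been seen. It also belongs to the other integrin ligands described above, so its fold changes are already part of the counts given there. It counted 122503, 83538 and 90882 normalized counts at day 0, 3 and 9 in untreated cells and 201673, 21691 and 20180 after FGF8. Like Itga5 and Itgb1 it was higher after FGF8 at day 0 (log2 0.72, counting interval 0.71 to 0.73) and lower at day 3 (-1.95, -1.96 to -1.93) and day 9 (-2.17, -2.19 to -2.15). These pairs share no library between days, but each value rests on 1 library per condition, and the likeness of the 3 genes was not tested.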
